A study of Macaca mulatta with 56 samples.

Results

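The core spliceosome proteins described here are the 44 identifiers, with 42 symbols, whose Ensembl rhesus symbol begins with SNRP, LSM and a digit, SF3A, SF3B or PRPF, out of 17807 identifiers in the table of the series. SNRPC and SNRPD2 each carry 2 identifiers. These names belong to the Sm and LSm rings, the U1 and U2 proteins, the branch-point complexes and the pre-mRNA processing factors.

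The spliceosome is the machine that removes introns from precursor messenger RNA. It is assembled anew on each intron from small nuclear ribonucleoproteins (snRNPs), particles in which a small nuclear RNA is bound by proteins. The U1 snRNP recognises the start of the intron, the U2 snRNP settles on the branch point with the help of the SF3A and SF3B complexes, and the U4/U6.U5 tri-snRNP then joins and is rearranged into the catalytic centre. A ring of Sm proteins encircles the RNA of most of these particles, and a related ring of LSm proteins sits on the end of U6. Neurons rely on alternative splicing for many ion channels and synaptic proteins, and they make SNRPN, a paralog of the Sm protein SNRPB encoded by an imprinted gene.

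Processed copies and close paralogs can share reads with several members (SNRPB with SNRPN, and the small SNRPD2, SNRPE and SNRPG), and how the authors' counting split such reads is not given in the sources used here. The naming rule also takes in proteins that are not spliceosome subunits: LSM10 and LSM11 belong to the U7 snRNP, which trims histone messages, and LSM14A and LSM14B bind messages in the cytoplasm.

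Messenger RNA was sequenced from 4 brain regions (amygdala, hippocampus, and the occipital and prefrontal cortex) of 14 female rhesus macaques (Macaca mulatta) aged 19.4 to 23.2 years, which gave 56 libraries, 7 per region and treatment. All of them ate a Western-style diet (36% of calories from fat, 18.5% from sugars) and lost ovaries and uterus (OvH) about 6 weeks after its start. From surgery on, 7 animals carried capsules with estradiol (hormone therapy, HT; mean serum estradiol 82.1 pg/mL), and the other 7, called OvH below, carried empty capsules (6.6 pg/mL). The series gives the study 30 months and averages serum estradiol over 32 months, and it holds no group with ovaries or on chow, so every difference below is between estradiol and placebo in ovariectomized animals on that diet.

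Libraries held 34.63 to 93.34 mega-reads (median 59.88), summed over genes after the authors' scaling was undone. In amygdala the mean was 53.1 in HT (42.2 to 71.7) and 65.2 in OvH (51.3 to 93.3). In hippocampus, occipital and prefrontal cortex the means were 62.4, 61.7 and 59.3 in HT and 59.7, 65.1 and 60.7 in OvH. The part of depth in the differences below was not tested. Values are read counts scaled by the authors so that the upper quartile of every library is equal, and they are compared within a gene, not between genes. An adjusted p is the Benjamini-Hochberg value from limma over all identifiers tested, two-sided, called under 0.05, and a log2 difference is on the scale of log2(value + 1). The levels of the amygdala columns and of the remaining columns matched only in part: over all identifiers, which are not independent replicates, mean levels in amygdala and in the other regions had a Spearman correlation of 0.544. Members were therefore used outside amygdala only if their mean log2 level there lay within 2 of that in amygdala, which held for 37 of 44 (75.93% of all identifiers). LSM5, LSM6, LSM8, PRPF6, SF3A2, SF3B2 and SF3B6 failed. The last members inside were PRPF39 and SNRPE (mean log2 level in the other regions minus amygdala of -1.13 and -1.26), and the first outside were SF3B2 and LSM6 (-3.53 and 3.76). A name may still be wrong where the level matches. All 17 neuron, 18 oligodendrocyte, 12 astrocyte, 11 microglia and 12 endothelial markers had a mean above 1 in both amygdala groups, and so had all of those usable in the other regions.

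In the amygdala of HT animals, transcripts of several small ring proteins and of 1 small SF3B subunit were about 2-fold more abundant, and most other spliceosome transcripts did not pass the test. Of the 44 members 7 rose and 1 fell, LSM14B. Over all 16129 identifiers tested there, 6.16% rose and 0.732% fell. The members' median difference was 0.09 against 0.01 over all identifiers, with 27 members above 0 and 17 below. The risers were LSM2, LSM5, LSM6, SNRPE, SF3B6 and both identifiers of SNRPD2.

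**Figure D1:**
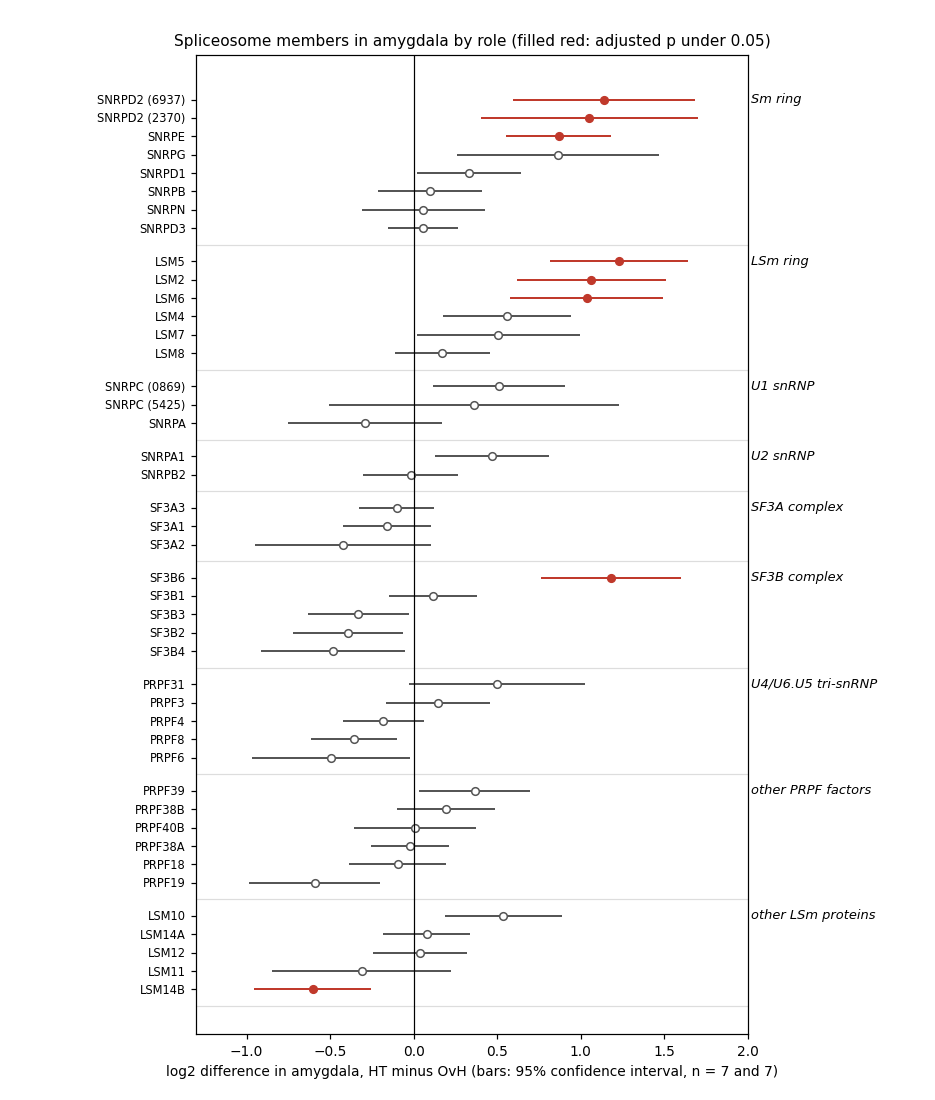
Log2 difference in amygdala (HT minus OvH, x axis) for 43 identifiers, grouped by role, with 95% confidence intervals from limma and 7 animals per treatment. Filled red points passed an adjusted p of 0.05, and digits in brackets are the last digits of the identifier where a symbol has 2. The 7 risers sit between 0.87 and 1.23, in the Sm ring, the LSm ring and SF3B, and LSM14B at -0.60 is the only called member to the left of 0.

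The LSm ring, whose members LSM2 to LSM8 cap U6 and help it pair with U4, gave 3 of the 7 risers. LSM5 (ENSMMUG00000062758) ranged from 2368 to 6436 (median 4657) in the 7 HT animals. In the 7 OvH animals it ranged from 1383 to 2378 (median 2037), and the difference was called (log2 1.23, SE 0.19, adjusted p = 0.00674). In 6 of 7 HT animals LSM5 lay above every OvH animal, and the exception, animal 39, lay just under the highest of them.

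LSM2 (ENSMMUG00000006832) read 2241 to 5437 (median 4312) in HT and 1320 to 2809 (median 2062) in OvH (log2 1.06, SE 0.21, adjusted p = 0.00792). LSM6 (ENSMMUG00000057637) read 2023 to 5952 (median 4387) in HT and 1609 to 2916 (median 2004) in OvH (log2 1.03, SE 0.21, adjusted p = 0.00899). For both genes, too, 6 of 7 HT animals exceeded all OvH animals and animal 39 did not. The other ring members also had positive differences without a call: LSM4 stood at 0.56 (adjusted p = 0.0709), LSM7 at 0.51 and LSM8 at 0.17. The median of the 6 LSm ring identifiers was 0.80, and with equal library totals in place of the authors' scaling 5 of 6 remained positive (median 0.58).

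The Sm ring is the shared core on which U1, U2, U4 and U5 snRNPs are built. SNRPE (ENSMMUG00000031372) was measured at 4262 to 8583 (median 6727) in HT against 3246 to 4566 (median 3410) in OvH (log2 0.87, SE 0.15, adjusted p = 0.00674). SNRPD2 (ENSMMUG00000006937), which forms a pair with SNRPD1 in the ring, was measured at 14911 to 50732 (median 33033) against 8920 to 23732 (median 13641) (log2 1.14, SE 0.25, adjusted p = 0.0136). The HT and OvH ranges of both genes met in 1 library, animal 39, and the other 6 HT animals were above all OvH animals.

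The second SNRPD2 identifier (ENSMMUG00000032370) had values of 281 to 1137 (median 590.3) against 180.5 to 476 (median 265) (log2 1.05, SE 0.31, adjusted p = 0.0471). Its call was lost with no low-value limit, with equal totals, with edgeR, with the oligodendrocyte covariate and without any 1 of 10 animals. In those 10 runs without an animal, 534 to 844 of all identifiers were called higher, against 994 in the main fit. SNRPG (ENSMMUG00000053241), another small Sm protein, was read at only 62.9 to 209 (median 105) in HT and 33.1 to 87.7 (median 60.05) in OvH, and its difference of 0.87 did not pass (SE 0.28, adjusted p = 0.0784).

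Other Sm proteins did not pass. SNRPB (ENSMMUG00000010050), whose gene gives SmB, was at 3062 to 5606 (median 3606) in HT and 2955 to 4587 (median 3741) in OvH (log2 0.10, SE 0.15, adjusted p = 0.755). SNRPN (ENSMMUG00000023139), the neuronal paralog, was at 36190 to 55365 (median 45241) and 28264 to 71519 (median 44429) (log2 0.06, SE 0.17, adjusted p = 0.89). The groups overlapped in both genes, and the 95% intervals of the difference ran from -0.21 to 0.40 for SNRPB and from -0.31 to 0.42 for SNRPN. SNRPD3 stood at 0.06 and SNRPD1 at 0.33, both without a call. All 8 Sm ring identifiers had positive differences (median 0.60), but with equal totals, as with edgeR, 5 of 8 did, and with DESeq2 7 of 8.

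**Figure D2:**
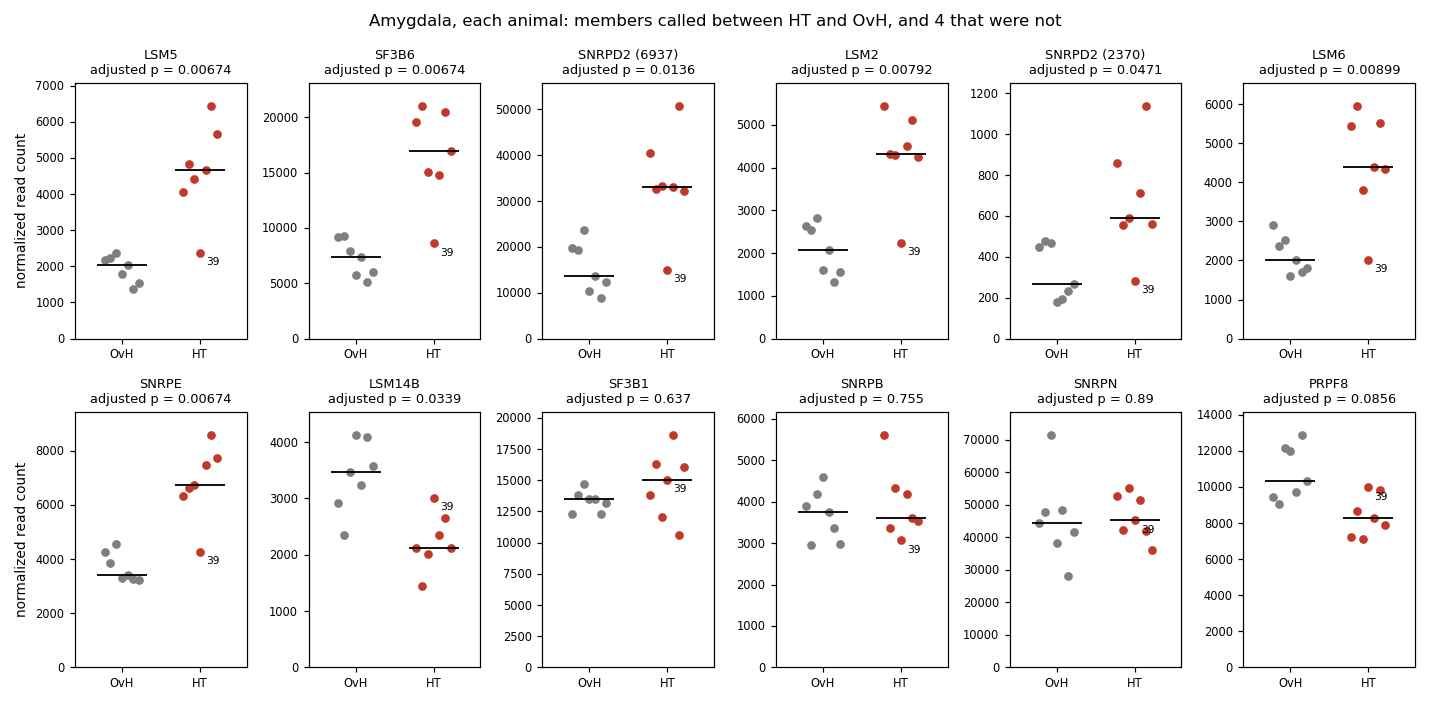
Normalized read count (y axis, from 0) of each of the 14 amygdala libraries for the 8 called identifiers and for SF3B1, SNRPB, SNRPN and PRPF8, which were not called. Points are animals, lines are group medians, and HT animal 39 is numbered: it lies among the OvH animals in the 7 risers and is the highest HT animal for LSM14B and PRPF8.

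At the branch point, 1 of the 5 SF3B members changed. SF3B6 (ENSMMUG00000001282), a small SF3B subunit, read 8608 to 21008 (median 16909) in HT against 5088 to 9271 (median 7411) in OvH (log2 1.18, SE 0.20, adjusted p = 0.00674). Again only animal 39 of the HT group lay within the OvH range. SF3B1 (ENSMMUG00000022430), the large scaffold that clamps the branch helix, read 10596 to 18630 (median 15014) against 12261 to 14676 (median 13478) (log2 0.12, SE 0.12, adjusted p = 0.637).

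The other SF3B subunits had negative differences without a call: SF3B4 -0.48, SF3B2 -0.39 and SF3B3 -0.33 (adjusted p 0.139 to 0.177). With equal totals these 3 passed as lower in HT. The 3 SF3A subunits, which join SF3B on U2, lay at -0.10 to -0.42 and none was called. The U2 proteins SNRPA1 (0.47, adjusted p = 0.0871) and SNRPB2 (-0.02), which bind the U2 RNA, did not pass either.

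Among the U1 proteins, SNRPC, which stabilises the pairing of U1 with the start of the intron, stood at 0.51 on its main identifier (ENSMMUG00000000869, adjusted p = 0.111) and at 0.36 on the other. SNRPA, which binds the U1 RNA, stood at -0.29. None of these 3 identifiers was called.

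The tri-snRNP members gave no call in either direction. PRPF8 (ENSMMUG00000004820), the scaffold of U5 around which the catalytic RNA folds, ranged from 7105 to 9976 (median 8270) in HT and from 9055 to 12878 (median 10310) in OvH. In 5 of 7 HT animals it lay below every OvH animal, and the difference missed the threshold (log2 -0.36, SE 0.12, adjusted p = 0.0856). PRPF31 (ENSMMUG00000022297), which binds U4 and is mutated in a form of retinitis pigmentosa, had a positive difference, also without a call, at 12801 to 35926 (median 24153) against 11101 to 29916 (median 15442) (log2 0.50, SE 0.25, adjusted p = 0.256). PRPF3 and PRPF4, partners on U4/U6, stood at 0.15 and -0.18, and PRPF6, which bridges U5 and U4/U6, at -0.49.

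Among the remaining PRPF factors none of 7 was called. PRPF19 (ENSMMUG00000014530), the ubiquitin ligase at the core of the complex that activates the spliceosome, was at 6500 to 13886 (median 8226) in HT and 8767 to 18884 (median 12087) in OvH (log2 -0.59, SE 0.18, adjusted p = 0.0621). In 4 of 7 HT animals it lay under all OvH animals. The U1-associated factor PRPF39 stood at 0.37, and PRPF18, PRPF38A, PRPF38B and PRPF40B between -0.10 and 0.19.

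LSM14B (ENSMMUG00000014084), a cytoplasmic message-binding protein, was the 1 member that fell: 1452 to 3016 (median 2115) in HT against 2347 to 4126 (median 3463) in OvH (log2 -0.60, SE 0.16, adjusted p = 0.0339). In 4 of 7 HT animals it was below all OvH animals. Its call was lost without any 1 of animals 33 to 38, 40, 42 or 43 (adjusted p up to 0.0887) and with oligodendrocyte markers as a covariate (adjusted p = 0.112). In those fits 14 to 60 of all identifiers were called lower, against 118 in the main fit. Its paralog LSM14A stood at 0.08, and the U7 proteins LSM10 and LSM11 at 0.54 (adjusted p = 0.0579) and -0.31.

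The number of members called lower depended on the scaling more than the number higher. The split was 7 higher and 1 lower with the authors' scaling, 6 and 6 with equal totals, 6 and 3 with edgeR's quasi-likelihood test and 10 and 3 with DESeq2, the last 2 on whole reads recovered from the table. The same settings moved the median of all identifiers from 0.01 to -0.20, -0.10 and -0.03, and that of the members from 0.09 to -0.12, -0.01 and 0.07. The split over all identifiers was 994 and 118, 617 and 1013, 675 and 343, and 1293 and 439. PRPF8 and PRPF19 were called lower in each of the last 3 settings. LSM2, LSM5, LSM6, SF3B6, SNRPE and the first SNRPD2 identifier were called higher in all 4.

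Single animals carried much of the spread. Animal 39 had the lowest HT value for 16 of the 27 members with a positive difference and the highest HT value for 9 of the 17 with a negative one. Without it 11 members were called higher and 3 lower, and over all 16126 identifiers the calls also grew, to 1351 and 225 from 994 and 118. OvH animal 32 had the highest OvH value for 25 of the 44 members, 16 of them among the 27 with a positive difference. Without animal 32, 13 members were called higher and 2 lower, against 1629 and 733 of all 16129 identifiers.

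**Figure D3:**
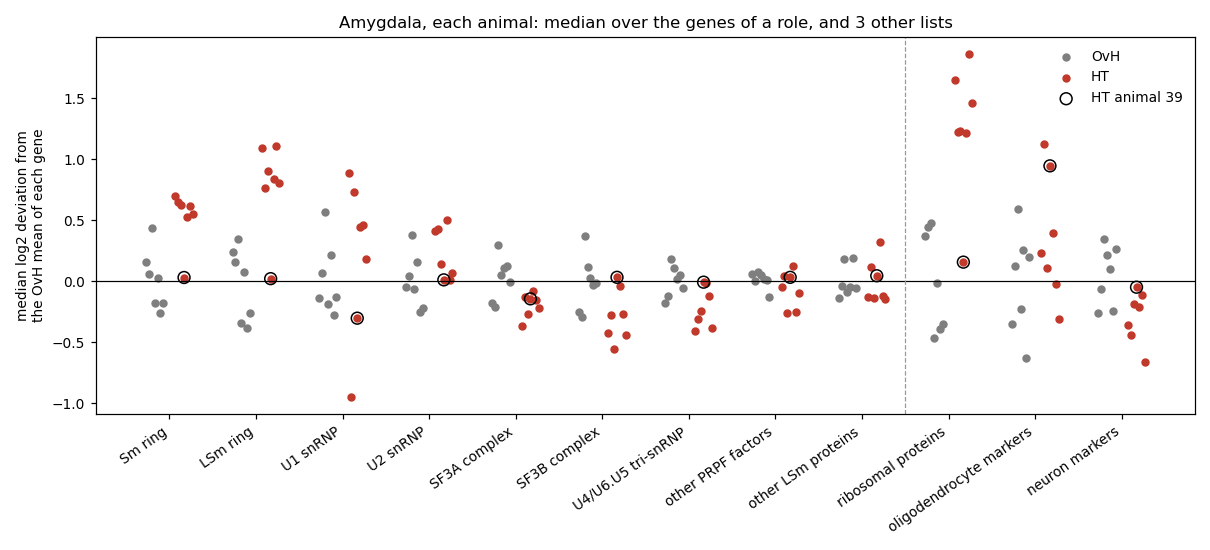
Median log2 deviation from the OvH mean of each gene (y axis) over the members of each role and over 3 other gene lists, for each of the 14 amygdala libraries, HT animal 39 circled. In the Sm and LSm rings 6 HT animals lie at 0.5 or above and animal 39 near 0, as for ribosomal proteins, where the 6 lie above 1.2 and animal 39 at 0.16.

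Other transcripts moved alongside the members in the same libraries. Of 73 ribosomal protein identifiers tested in amygdala 63 rose and 0 fell (median 1.27). Their summed normalized reads were 3468400 to 11844000 in HT (median 7942550) and 2254620 to 4184030 in OvH (median 3091800), and animal 39 had the lowest ribosomal median of the HT group. Of 18 oligodendrocyte markers 3 rose and 0 fell (median 0.36). Of 17 neuron markers 0 rose and 2 fell (median -0.32). Of 12 astrocyte and 11 microglia markers 1 each rose, and of 12 endothelial markers none was called. Normalized totals were 62.4 to 75.8 mega-reads in HT and 55.9 to 69.1 in OvH. With oligodendrocyte markers as a covariate 6 members were called higher and 1, PRPF19, lower. The part of these transcripts and totals in the members' differences was otherwise not tested, and in bulk tissue fewer cells of a type and less RNA per cell cannot be told apart.

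Lists of other splicing genes gave between 0 and 5 calls each in amygdala, where 6.16% of all identifiers rose and 0.732% fell. Of 25 further snRNP proteins 3 rose and 2 fell: SNRNP27 of the tri-snRNP (log2 0.82), PHF5A of SF3B (1.01) and ZCRB1 of the minor spliceosome (0.50) rose, and the U5 proteins EFTUD2 (-0.36) and CD2BP2 (-0.42) fell. Of 24 Prp19-complex and catalytic-step factors 2 rose, CWC15 (0.86) and BUD31 (0.71). In the SMN machinery, which loads Sm rings onto small nuclear RNA, 1 of 14 rose, GEMIN2 (0.96), the subunit that holds the Sm proteins.

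PHF5A, like SF3B6 a subunit of SF3B, averaged 5186 ± 1597 in HT against 2544 ± 690.3 in OvH (SD, n = 7 each, adjusted p = 0.0108). Of 7 exon junction complex genes 1 rose, MAGOHB (1.04), and of 12 factors that recognise splice sites 1 rose, TIA1 (0.77). Of 21 hnRNP genes 1 rose, HNRNPH2 (0.62), and 1 fell, HNRNPA0 (-0.57). None of 14 SR proteins, which promote exon inclusion, and none of 24 splicing regulators of neurons passed. The list medians lay between -0.15 for the neuronal regulators and 0.21 for the SR proteins.

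Outside the amygdala no member was called between HT and OvH. The count was 0 of 37 in each of hippocampus, occipital and prefrontal cortex and in the mean of the 3, where 0% of all identifiers were called in each of these comparisons. At an unadjusted p under 0.05 the members numbered 0, 0, 1 and 1, and all identifiers 335, 303, 603 and 517. edgeR and DESeq2 also called 0 members in each of the 3 regions. Over all identifiers edgeR called 0 in each. DESeq2 called 2 higher and 10 lower in hippocampus, 5 higher and 1 lower in prefrontal cortex, and 0 in occipital cortex. The members' medians were -0.07, -0.07 and -0.05 in hippocampus, occipital and prefrontal cortex, with 27, 28 and 25 of 37 below 0, against 0.02, 0.00 and 0.00 over all identifiers.

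**Figure D4:**
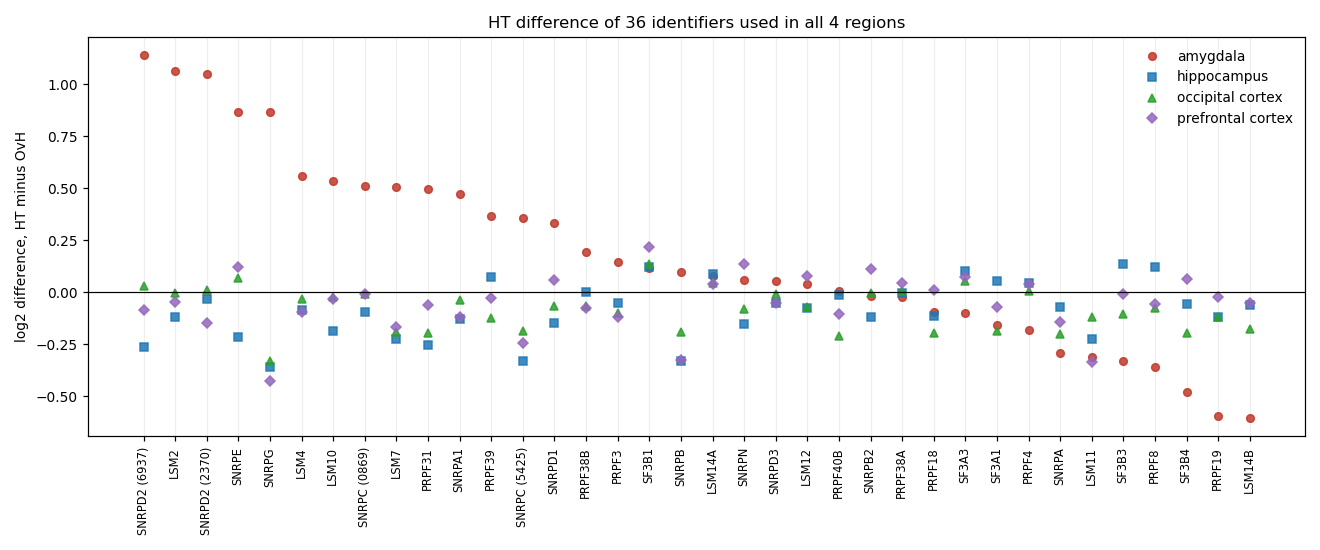
Log2 difference, HT minus OvH (y axis), for 36 identifiers used in all regions, ordered by their amygdala value, with 1 symbol per region. The amygdala points run from 1.14 down to -0.60, and the points of the other 3 regions stay between -0.43 and 0.22.

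Of the 7 identifiers that rose in amygdala 4 could be used elsewhere (both of SNRPD2, LSM2 and SNRPE), and their HT differences there lay between -0.26 and 0.12 with no call. The first SNRPD2 identifier read 6299 to 14955 (median 7956) in HT hippocampus and 5135 to 26281 (median 13643) in OvH hippocampus. In occipital cortex it read 7777 to 26210 (median 8855) and 7139 to 18742 (median 9869), and in prefrontal cortex 7624 to 15041 (median 9261) and 7796 to 15366 (median 9641). The groups overlapped in all 3 regions, with log2 differences of -0.26, 0.03 and -0.09. The 95% intervals, in the same order, ran from -0.95 to 0.42, from -0.54 to 0.60 and from -0.43 to 0.25.

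The member with the smallest p outside amygdala was SNRPB in prefrontal cortex, at 2988 to 4454 (median 3675) in HT and 3883 to 5476 (median 4637) in OvH (log2 -0.32, limma adjusted p = 0.9999). SNRPB also had the smallest p of the members in hippocampus (-0.33) and in the mean of the 3 regions (-0.28), and in occipital cortex PRPF40B did (-0.21). None passed after adjustment.

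Whether the HT difference itself differed between amygdala and the mean of the other regions was tested within animals. The test called 0 of 37 members, against 0.0074% of 13520 identifiers with matching levels (1 identifier). SNRPE came closest, with a difference of differences of 0.88 (SE 0.22, limma adjusted p = 0.083). LSM2 stood at 1.12, SNRPG and the first SNRPD2 identifier at 1.24 each, all with that same adjusted p. At an unadjusted p under 0.05 there were 18 of 37 members and 3006 of 13520 identifiers. Without animal 39 the test called 8 members higher, and over all identifiers 871 higher and 150 lower. Without animal 40 it called 5 members higher, and over all identifiers 596 higher and 97 lower.

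In the other 3 regions several of the named ring proteins varied between animals in step with ribosomal proteins. For 11 members named for the amygdala comparison and usable outside it, the log2 value was set against the median log2 value of 58 ribosomal protein identifiers over the 14 libraries of each region, and for 14 members in amygdala within each treatment (75 identifiers, 7 libraries). This made 61 relations, with two-sided permutation p-values (exact in amygdala) adjusted over all 61. Both measures come from the same library and share its scaling, depth and RNA.

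The first SNRPD2 identifier followed the ribosomal median closely: Pearson r was 0.98 in occipital cortex (adjusted permutation p = 0.000152, rho 0.98 with adjusted p = 0.000203), 0.98 in hippocampus and 0.87 for the prefrontal libraries. These first 2 raw p-values, 1e-05, are the smallest that 100000 permutations can give. Leaving out the 2 libraries farthest from the ribosomal median gave r of 0.95, 0.97 and 0.63. LSM2 (r 0.96, 0.98 and 0.82 in the same order) and SNRPE (0.90, 0.90 and 0.72) did likewise, with 0.62 and 0.56 in prefrontal cortex without the 2 farthest libraries. In occipital cortex the highest reading of SNRPD2, LSM2 and SNRPE was in each case that of HT animal 40.

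PRPF8 ran the opposite way, with r of -0.93 in occipital cortex (adjusted permutation p = 0.000261, rho -0.76, adjusted p = 0.0106), -0.81 in hippocampus and -0.80 in prefrontal cortex, and -0.85, -0.88 and -0.60 without the 2 farthest libraries. Its lowest value in occipital cortex was that of animal 40 and in hippocampus that of animal 43, the libraries in which SNRPD2 was highest. LSM14B was also negative in the 3 regions (r -0.86, -0.73 and -0.69, and -0.62, -0.70 and -0.65 without the 2 farthest). These members were among many identifiers with such relations: r was 0.7 or above for 13.9% of all identifiers other than ribosomal proteins in hippocampus and for 13.7% and 5.73% in occipital and prefrontal cortex, and for 14, 15 and 9 of the 37 members. It was -0.7 or below for 7.05%, 12.6% and 6.65% of identifiers, and for 5, 4 and 1 members. Of the 11 members tested, those passing on both Pearson and Spearman after adjustment numbered 7 upward and 1 downward in hippocampus, 7 and 2 in occipital cortex, and 3 and 2 in prefrontal cortex. SNRPB and SNRPG passed in hippocampus (r 0.84 and 0.83) and not in prefrontal cortex (0.26 and 0.24), and the difference between these regions was not tested.

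Within amygdala Pearson r also passed among the 7 OvH animals, which differ in no labelled treatment, for 8 of the 14 members tested. These were the 6 risers tested and 2 members not called between HT and OvH, SNRPN and PRPF31. Pearson r was 0.97 for SNRPD2 (exact permutation, adjusted p = 0.00605, rho 0.93, adjusted p = 0.0229), 0.96 for LSM2, 0.93 for SNRPE and LSM6, 0.89 for SF3B6 and 0.88 for LSM5. For SNRPN and PRPF31 it was 0.80 and 0.79 (exact permutation, adjusted p = 0.0207 and 0.0242). Spearman's rho passed there for SNRPD2, LSM6 and LSM5. It did not pass for LSM2, SF3B6, SNRPN and PRPF31 (adjusted p = 0.0501 each, exact permutation) or SNRPE (adjusted p = 0.0694, exact permutation). Over all identifiers other than ribosomal proteins r was 0.7 or above for 9.32% in OvH and 6.97% in HT, and for 15 and 10 of the 44 members. Without the 2 farthest animals the values of the 6 risers in OvH were 0.95, 0.98, 0.92, 0.92, 0.98 and 0.95. Those of SNRPN and PRPF31 were 0.69 each. In the 7 HT animals r was 0.91 to 0.99 for the 6 risers, but without the 2 farthest animals it fell to between -0.29 and 0.68, so there it rested on animals 39 and 41. Spearman's rho passed for none of them in HT.

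The hippocampus libraries of animals 30 and 43 resembled those of another animal more than their own animal's other regions (r 0.03 against 0.21, and 0.10 against 0.12). They were also the lowest and the highest hippocampus library for SNRPD2 and LSM2. Without both, the members' HT median in hippocampus was -0.16 with 0 called, and the relations with ribosomal proteins there were 0.97 for SNRPD2, 0.98 for LSM2 and -0.88 for PRPF8.

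The regions differed from each other in many members, and most called members were highest in occipital cortex. These comparisons used the 37 members and the animal as a block, 14 animals per region. Between occipital and prefrontal cortex 17 members were higher in occipital cortex and 2 lower, where 19.7% of all 16354 identifiers were higher and 28.2% lower. The members' median was 0.23 against -0.06 over all identifiers.

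SNRPA1, a U2 protein, was read at 3825 to 10047 (median 5202) in occipital cortex and 2870 to 5018 (median 3597) in prefrontal cortex (log2 0.61, SE 0.11, adjusted p = 4.29e-05), and was higher in occipital cortex in 14 of 14 animals. SNRPB was read at 4332 to 10897 (median 6306) and 2988 to 5476 (median 4256) (log2 0.58, SE 0.11, adjusted p = 0.000113), higher in 13 of 14. SNRPN was read at 38478 to 71458 (median 54637) and 32302 to 55514 (median 37515) (log2 0.51, SE 0.11, adjusted p = 0.000253), higher in 14 of 14. The ranges of the regions overlapped in all 3 genes, and all 3 stayed called in the fit with no animal block.

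By role, all 3 U1 identifiers, both U2 proteins, 3 of 4 tri-snRNP proteins (PRPF3, PRPF4, PRPF8) and 4 of 8 Sm ring identifiers (SNRPB, SNRPN, SNRPD1, SNRPD3) were called higher in occipital cortex. SF3A3, SF3B4, LSM2, LSM14A and PRPF19 made up the rest. The lower ones were LSM11 and PRPF39. Of the ring proteins that rose in HT amygdala and were usable here, LSM2 was called (0.37). SNRPE and SNRPD2 were not (0.07, and 0.18 for the first SNRPD2 identifier).

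**Figure D5:**
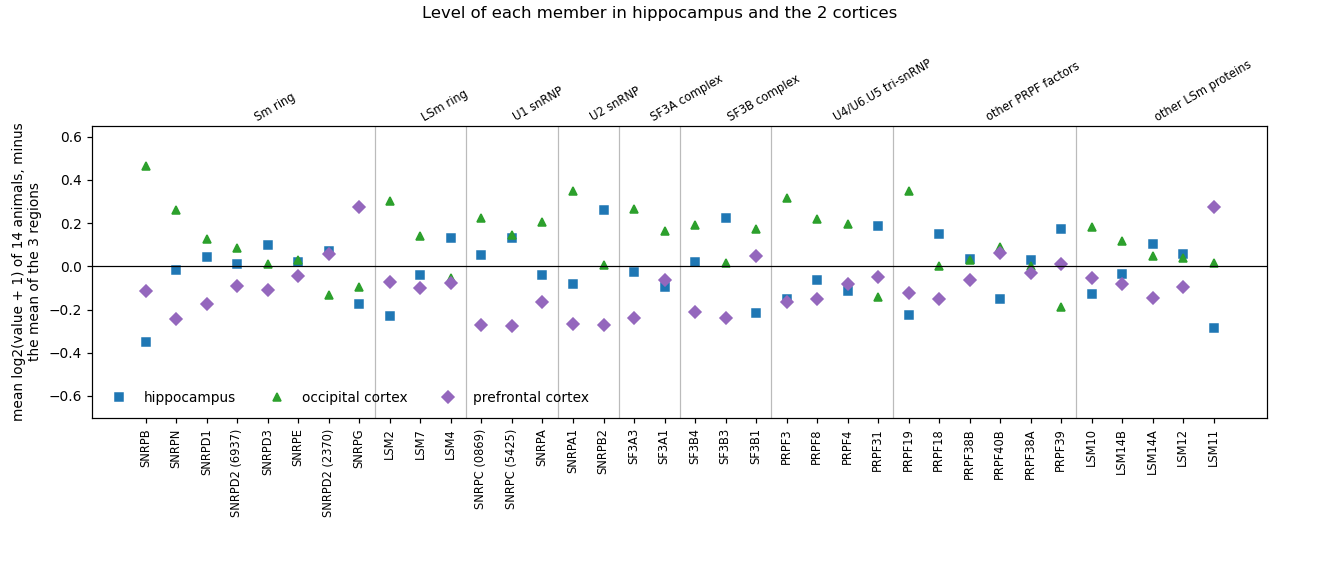
Mean log2(value + 1) of 14 animals in hippocampus, occipital cortex and prefrontal cortex, minus the mean of the 3 regions (y axis), for 36 identifiers grouped by role. Occipital cortex is the highest of the 3 for most U1, SF3A and tri-snRNP members and for SNRPA1 of U2, and in the Sm ring SNRPB stands 0.47 above its mean there. SNRPB2 of U2, SF3B3, SNRPD3, SNRPG, PRPF31, PRPF39 and LSM11 are among those that depart from that order.

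Hippocampus was lower than occipital cortex in 13 members and higher in 3, PRPF31, PRPF39 and SNRPB2, where 22.6% of all identifiers were lower and 28.1% higher. SNRPB was read at 2375 to 6585 (median 3760) in hippocampus and 4332 to 10897 (median 6306) in occipital cortex (log2 -0.82, SE 0.11, adjusted p = 4.75e-07), higher in hippocampus in 1 of 14 animals. PRPF19 was read at 11999 to 20584 (median 16085) and 16477 to 31808 (median 23968) (log2 -0.57, SE 0.09, adjusted p = 4.01e-06), higher in hippocampus in 0 of 14. LSM2 was read at 837 to 2716 (median 1401) and 1252 to 4837 (median 1751) (log2 -0.53, SE 0.16, adjusted p = 0.00513), higher in 3 of 14. PRPF39, an alternative splicing factor of U1, was the clearest in the other direction, higher in hippocampus in 14 of 14 animals (log2 0.36, SE 0.08, adjusted p = 0.000519).

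Hippocampus and prefrontal cortex gave the fewest calls. Of the 37 members 8 were higher in hippocampus and 3 lower (LSM11, SF3B1 and SNRPG), where 20.9% of all identifiers were higher and 22.6% lower, and with equal totals the split was 5 and 5. SNRPB2, which binds the U2 RNA, was read at 1941 to 3773 (median 2459) in hippocampus and 1426 to 2438 (median 1709) in prefrontal cortex (log2 0.53, SE 0.09, adjusted p = 9.82e-06), higher in 13 of 14 animals. SF3B3 was read at 4235 to 10730 (median 9584) and 5462 to 6929 (median 6124) (log2 0.46, SE 0.12, adjusted p = 0.0019), higher in 13 of 14. LSM11, which is specific to the U7 snRNP, was read at 104 to 387 (median 181) and 140.3 to 567 (median 261) (log2 -0.56, SE 0.10, adjusted p = 4.98e-05), higher in 1 of 14.

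Taking the levels in order, SNRPB was highest in occipital cortex, and its hippocampal level lay below the prefrontal one by a margin that missed the threshold (log2 -0.23, limma adjusted p = 0.0955) and passed it with equal totals (-0.30, adjusted p = 0.0187). SNRPN was also highest there, with hippocampus above prefrontal cortex by 0.23 (adjusted p = 0.0803, and 0.0416 without animals 30 and 43). SF3B1 was lowest in hippocampus, and both cortices were not separated (adjusted p = 0.227).

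Other splicing lists shared the tilt between the cortices. Of 22 Prp19-complex and catalytic-step genes 15 were higher in occipital than in prefrontal cortex and 0 lower, of 18 hnRNP genes 11 and 0, of 22 further snRNP genes 9 and 1, and of 12 SMN and assembly genes 8 and 0. The splicing regulators of neurons were opposite, with 2 of 22 higher and 11 lower (median -0.27). Cell type markers also differed, where 19.7% of all identifiers were higher in occipital cortex and 28.2% lower. Of 14 oligodendrocyte markers 6 were higher in occipital cortex and 0 lower, and of 16 neuron markers 5 and 2. Of 10 astrocyte markers 2 were higher and 4 lower, of 10 microglia markers 0 and 5, and of 11 endothelial markers 5 and 0. Between hippocampus and occipital cortex 28.1% of all identifiers were higher in hippocampus and 22.6% lower. There 10 of 10 microglia markers were higher in hippocampus, and of 16 neuron markers 2 were higher and 9 lower. Of 14 oligodendrocyte markers 1 was higher and 1 lower, of 10 astrocyte markers 4 and 1, and of 11 endothelial markers 1 and 3. Against prefrontal cortex, 11 of 14 oligodendrocyte and 10 of 10 microglia markers were higher in hippocampus and 0 of either lower. In that comparison, where 20.9% of all identifiers were higher and 22.6% lower, 1 of 16 neuron markers was higher and 5 lower. Of 10 astrocyte markers 5 were higher and 2 lower, and of 11 endothelial markers 3 and 0. Their part in the members' regional differences was not tested.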

How the data were processed

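Paired 150-base reads were made with a stranded kit from about 30 mg of tissue, per the labels' protocols. The submitters' processing notes name FastQC 0.1.1.2, Trimmomatic, STAR 2.7.3a, edgeR 3.28.0 and the build Mmul_10. The counting program and its strand setting are not given in the sources used here. The deposited values are a signal, read counts per gene scaled by the authors to an equal upper quartile. Undoing the scaling gave whole reads for 100% of values (tolerance 0.01 reads). The labels name the animal, which pairs regions (mean correlation of deviations 0.287 to 0.494).

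Differences were fitted with limma 3.58.1 (R 4.3.3, intensity trend) on log2(value + 1), for identifiers averaging 10 or more in the libraries fitted, with the animal as a block between regions. Alternatives were edgeR 4.0.16 and DESeq2 1.42.0 on recovered reads, equal totals, a pseudocount of 10, no minimum, array weights, an oligodendrocyte covariate, a block over all libraries, a level limit of 1 and leaving out animals. Correlations (Python 3.11.15) were added after the data were seen. Fits were tested on simulated data. The members and lists were chosen with earlier results of these data known. Named in full were up to 6 higher and 6 lower amygdala members by p, 8 set subunits, and those with the smallest p or largest called difference elsewhere. No sequences were used here. A single member counts in all totals and is not reported here on its own, in text or plots.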

Additional observations from a re-analysis of the deposited data

Results flagged for a closer look

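In 34 groups of 7 libraries of the members named for each comparison, 3 had an end value set apart from the rest by more than Dixon's 95% limit. Chance gives about 1 in 20 among independent groups. These groups share libraries, and many members were named by p, so that rate is no measure for them. LSM2 in HT amygdala had its lowest value, 2241, in animal 39, against 4252 for the next. PRPF19 in HT amygdala had its highest value, 13886, in animal 39, against 9521 for the next. SNRPG in HT amygdala had its highest value, 209.0, in animal 41, against 119.4 for the next. Animals 39 and 41 were also the HT animals with the lowest and highest ribosomal protein medians in amygdala (0.16 and 1.86 on the log2 scale relative to OvH). No member's HT difference passed the test of a difference between amygdala and the other regions.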

How the results depend on the processing

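Alternatives to the member counts were run on the same comparisons. For members higher in HT amygdala (7), array weights gave 15 and leaving out 1 animal 6 to 13, the highest without animal 32 and 11 without animal 39. For members lower (1), equal totals gave 6, edgeR 3, DESeq2 3, array weights 7, and leaving out 1 animal 0 to 3 (2 without animal 31 or 32, 3 without animal 39, and 0 without any 1 of animals 33 to 38, 40, 42 or 43). Lower calls over all identifiers numbered 118 in the main fit and 14 to 60 in the runs that left 0 members lower. They numbered 218 without animal 31, 733 without animal 32 and 225 without animal 39. Higher calls over all identifiers, 994 in the main fit, ranged from 534 to 1629 without 1 animal. The fit of all 56 libraries with the animal as replicate block (consensus correlation 0.184) gave 7 higher and 2 lower: SNRPG and PRPF19 were added, and SF3B6 lost its call (adjusted p = 0.316). For members that failed the level rule, such as SF3B6, LSM5 and LSM6, this fit also used the columns set aside above. SF3B6 averaged 11929 in amygdala and 7.22 to 13.97 in the other regions, where LSM5 had only values of 0. For these members the block fit therefore cannot show whether the amygdala call holds. Over all identifiers the split of higher and lower was 1105 and 265 with the replicate block, 2277 and 1248 with array weights, 501 and 55 with the oligodendrocyte covariate and 617 and 1013 with equal totals. The count of members whose HT difference differed between amygdala and the other regions (0) was 0 to 8 without 1 animal, 8 without animal 39 and 5 without animal 40, where the counts over all 13520 identifiers went from 0 higher and 1 lower to 871 and 150, and to 596 and 97. Between regions, the fits with no replicate block called 11 (hippocampus and occipital cortex, 16 with it), 9 (hippocampus and prefrontal cortex, 11) and 15 members (both cortices, 19), and without animals 30 and 43, chosen after seeing the data, 15, 12 and 18. Over all 16354 identifiers the higher and lower calls were 3960 and 3294, 2824 and 3024, and 2786 and 3901 with no block. With the block they were 4598 and 3700, 3412 and 3693, and 3226 and 4610. Without animals 30 and 43 they were 4876 and 4179, 4029 and 4405, and 3334 and 4754 of 16342. All member counts of 0 between HT and OvH in hippocampus and the cortices stayed 0 in every alternative run.

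Directions in amygdala turned for 10 of 44 members with equal totals, a scaling that also moved the median of all identifiers from 0.01 to -0.20, for 6 with edgeR, 4 with the oligodendrocyte covariate, 3 with DESeq2, 1 with array weights and 0 to 4 without 1 animal. In limma with the authors' scaling the adjusted p of these members was at least 0.447. SNRPN turned to -0.16 with equal totals, -0.079 with edgeR, -0.0048 with DESeq2, -0.12 with the oligodendrocyte covariate and -0.051 without animal 35 (-0.051 to 0.17 without 1 animal). SNRPB turned to -0.12 with equal totals and -0.0024 with edgeR (0.0089 to 0.15 without 1 animal), and SF3B1 to -0.10 with equal totals. The causes were not tested. With 7 animals per group, the standard errors of the members' amygdala differences were 0.10 to 0.41 on the log2 scale, so small differences were not detectable.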
